A study of Homo sapiens with 6 samples.

Results

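The genes of glycolysis and of pyruvate entry into mitochondria were followed in HCT116 cells, a human colorectal carcinoma line, after transfection with mimics of the microRNA miR-8485. The 35 genes, out of the 58735 listed, were chosen by name to cover the route from glucose uptake through the glycolytic enzymes to lactate export and pyruvate dehydrogenase. RNA-seq covered 3 libraries of cells given a control transfection (CTR) and 3 of cells that received 50 nM miR-8485 mimics. The submitters described them as independent biological replicates. The study's methods give collection at 48 h after transfection or at other stated times, and name no separate time for the RNA-seq. What the control transfection contained is not given in the sources used here. A mimic is a short synthetic RNA carrying the sequence of a mature microRNA, HCT116 is a single line in culture, and no other cell line, dose or time is in the comparison.

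Glycolysis splits glucose into pyruvate in the cytosol and yields ATP and NADH along the way. Pyruvate is then either reduced to lactate and exported, or carried into mitochondria and turned into acetyl-CoA by the pyruvate dehydrogenase complex, which the pyruvate dehydrogenase kinases hold in check. Colorectal carcinoma cells in culture are known for high glucose uptake and lactate release even with oxygen at hand, and many genes of the route are known targets of the hypoxia-inducible factors and of MYC.

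A microRNA finds its targets mainly by pairing of its seed, bases 2 to 8, with a site in the 3′ UTR. The mimic is shown with the seed in capitals, since the sites in the genes below are the letters it can pair with.
miR-8485 mimic: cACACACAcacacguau
The seed pairs with the word TGTGTGT. This word stood in the canonical 3′ UTR of 12 of the 35 genes (34.3%), against 3085 of the 10685 tested genes with an annotated 3′ UTR (28.9%), so the gene set held it about as often as other genes. With the longest annotated 3′ UTR it stood in 13 of them, PDK3 being the addition, against 30.2% of tested genes. The windows below come from hg38 with GENCODE release 44 and are written in the direction of transcription with the word in capitals. They show the first copy in 6 genes whose level fell, then HK2, which was not called and whose 4 copies overlap in 1 run of 13 bases, and then the first copy in MPC2 and PDK2, which rose.
PGAM1, chr10:97433235-97433263, plus strand: gtgcttcctggTGTGTGTattagaatccc
ENO2, chr12:6923477-6923505, plus strand: atcagttccttTGTGTGTactcactgaag
PKM, chr15:72199336-72199364, minus strand: gcttcctttccTGTGTGTactctgtccag
PGK1, chrX:78128659-78128687, plus strand: tagactatataTGTGTGTttatatgcaga
PFKFB4, chr3:48519659-48519687, minus strand: aggccctccagTGTGTGTgatagtcacca
DLAT, chr11:112063593-112063621, plus strand: aaaaagttaaaTGTGTGTaaaaaagtgtt
HK2, chr2:74893049-74893077, plus strand: aaaggtagagaTGTGTGTGTGTGTaggta
MPC2, chr1:167918216-167918244, minus strand: gcaaagctaacTGTGTGTttagaaggcac
PDK2, chr17:50110976-50111004, plus strand: ggggttaaagcTGTGTGTccctcccagtg
The words are matches of letters and were not tested for binding.

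The values are FPKM, fragments scaled by gene length and by the library's fragments on genes, so levels of different genes can be set side by side. Tests were made with limma on log2(FPKM + 0.1), adjusted by Benjamini-Hochberg over the 12349 genes with a mean of at least 1 FPKM, and the threshold for a call was an adjusted p of 0.05. The fold change on this scale understates the change of low genes. The libraries held 17473874 to 18480047 fragments on listed genes, and every value was a whole number of fragments within 0.01. Between pairs of libraries the chi-square per gene was 2.75 to 10.5 within a group and 61.0 to 70.3 between groups. Each library was counted as its own replicate by the submitters' description, since the chi-square cannot show whether transfections were independent. The 6 epithelial markers lay at 18.7 FPKM or above in every library. Among them KRT18 (539 to 609 FPKM in CTR, 286 to 297 in miR-8485), KRT8 (817 to 873, 543 to 561), KRT19 (1095 to 1230, 747 to 801) and CLDN4 (86.8 to 92.7, 67.2 to 71.01) were lower in miR-8485 without overlap, and EPCAM and CDH1 overlapped. Of 7 markers of other cell types only COL1A1, a fibroblast marker, exceeded 1 FPKM, at 4.05 to 4.38 in CTR and 6.27 to 6.40 in miR-8485, while the fibroblast marker DCN was at 0 in all 6 libraries. The part of these markers in the results was not tested. In bulk RNA, fewer cells and less RNA per cell cannot be told apart, and FPKM is relative to the library total.

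By counts of genes and by fragments, the route was lower after miR-8485 transfection, with a few genes moving against it. Of the 35 genes, 34 passed the filter on low values, and 17 of these were downregulated and 6 upregulated (SLC2A3, PFKL, PFKM, MPC1, MPC2 and PDK2), while 11 were not called. Among all tested genes, 30.5% were downregulated, 29.1% were upregulated and 59.6% were called in either direction. The median log2 fold change was -0.27 over the 34 genes and -0.0041 over all tested genes. The 3 miR-8485 libraries lay below the 3 CTR libraries without overlap for 18 of the 34 genes and above them for 7, against 34.0% and 32.5% of all tested genes, or 66.5% in both directions. No gene passed the filter through 1 group alone, the lowest group mean being 1.19 FPKM, that of PDK3 in miR-8485. PDK4 was the gene under the filter.

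In terms of sequenced fragments, the 35 genes took 2.35%, 2.43% and 2.48% of each CTR library and 1.86%, 1.88% and 1.89% of each miR-8485 library. The 15 enzymes from hexokinase to pyruvate kinase took 1.72% to 1.85% in CTR and 1.44% to 1.46% in miR-8485. Transcripts of the mitochondrial genome moved the other way, from 7.94% to 10.2% of fragments in CTR to 10.6% to 11.3% in miR-8485, and their part in these values was not tested. Rescaling to TPM, which shifted the median of all genes from -0.0041 to -0.12, gave 20 downregulated and 4 upregulated members of the route. Of all 12349 tested genes, 4725 were then downregulated and 2613 upregulated, against 3769 and 3593 before, so the background moved in the same direction.

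**Figure D1:**
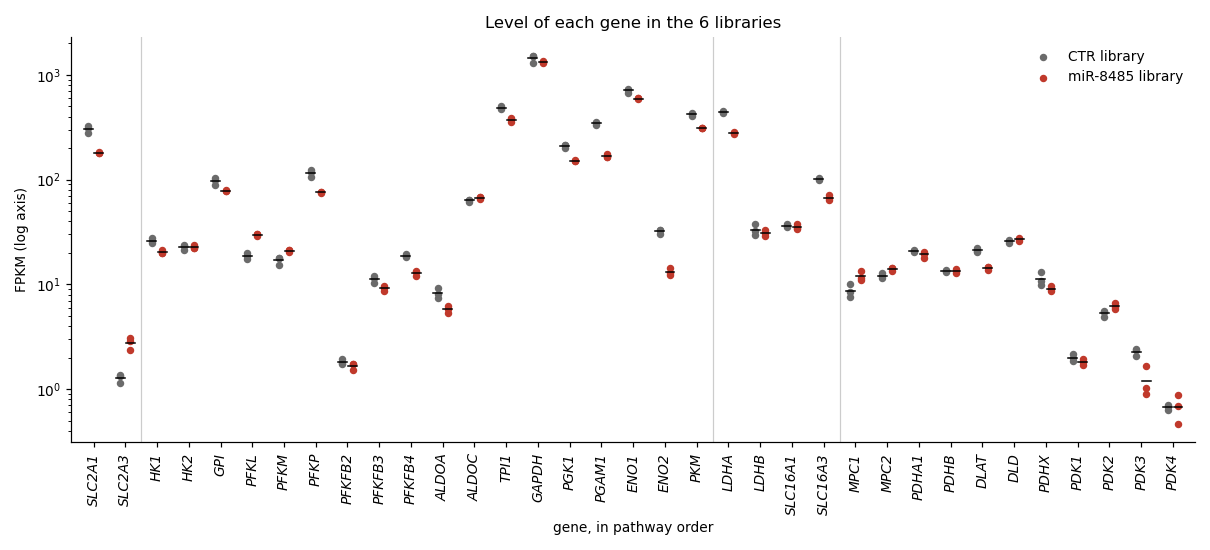
FPKM of the 35 genes in pathway order on a log axis, with CTR libraries in grey, miR-8485 libraries in red and the group mean as a black line; thin vertical lines part transport, glycolytic and PFKFB enzymes, lactate genes and mitochondrial entry. GAPDH stood highest, at 1304 to 1530 FPKM, and PDK4 lowest, under 1 FPKM in all 6 libraries.

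Levels spanned a wide range, and the genes most abundant in CTR were nearly all lower in miR-8485. GAPDH led, followed by ENO1 with a CTR mean of 713 FPKM, TPI1 with 486, LDHA with 443 and PKM with 421. Of the 10 genes with a CTR mean of at least 100 FPKM, 9 were downregulated and GAPDH was not called, with a median log2 fold change of -0.53. Among all 354 tested genes at that level, 32.5% were downregulated and 44.9% upregulated, with a median of 0.10. Below 100 FPKM, 8 of the 24 tested genes of the route were downregulated and 6 upregulated, with a median of -0.098. Among all 11995 tested genes below that level, 30.5% were downregulated and 28.6% upregulated, with a median of -0.0069. The counts of the route below 100 FPKM thus lay near the general share. The split at 100 FPKM was chosen after the values were seen. It used the CTR values alone, which also enter the comparison, so it favours genes that are higher in CTR. PFKP and SLC16A3 were above 100 FPKM in CTR only, with miR-8485 means of 76.1 and 67.0 FPKM. The counts on either side of the split are therefore a description and not a test.

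Glucose enters through the facilitative transporters. SLC2A1 (GLUT1), the main glucose transporter of most tumour lines, on chromosome 1 (42925375 to 42959176), stood at 281, 312 and 323 FPKM in CTR and at 178, 181 and 186 FPKM in miR-8485. All miR-8485 libraries were below all CTR libraries (log2 fold change -0.75, standard error 0.06, adjusted p = 3.8e-05). SLC2A3 (GLUT3), a transporter of high affinity best known from neurons, stood at 1.32, 1.14 and 1.36 FPKM in CTR and at 2.37, 3.10 and 2.87 FPKM in miR-8485 (log2 fold change 1.06, standard error 0.14, adjusted p = 4.2e-04). It rose without overlap from 127 fragments in the lowest library to 345 in the highest, yet it made up only 1.31% to 1.68% of the summed FPKM of both transporters after transfection, against 0.36% to 0.47% in CTR. The summed FPKM fell from a mean of 307 ± 21.7 (SD, n = 3) to 185 ± 4.02 (SD, n = 3).

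At hexokinase, which traps glucose as glucose-6-phosphate, the isozymes parted. HK1, the widely expressed form, read 26.1, 25.1 and 27.4 FPKM in CTR and 19.9, 19.995 and 21.3 FPKM in miR-8485 (log2 fold change -0.36, adjusted p = 8.4e-04). HK2, the form known to be induced in tumours, read 21.3, 23.2 and 23.7 FPKM in CTR and 22.1, 22.4 and 23.8 FPKM in miR-8485. Its groups overlapped, and the 95% confidence interval of its log2 fold change, -0.13 to 0.14, held both directions. HK2 thus went from 44.9% to 48.1% of hexokinase FPKM in CTR to 52.6% to 52.8% in miR-8485. GPI, which converts glucose-6-phosphate to fructose-6-phosphate, fell by 0.32 on the log2 scale from a mean of 97.7 FPKM.

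Phosphofructokinase-1, the committed step of glycolysis, showed opposite changes among its 3 subunit genes. PFKP, the platelet type and the most abundant here, read 105, 118 and 123 FPKM in CTR and 76.4, 75.2 and 76.7 FPKM in miR-8485 (log2 fold change -0.59, standard error 0.06, adjusted p = 1.4e-04). PFKL, the liver type on chromosome 21 (44300051 to 44327376), read 17.3, 19.9 and 18.5 FPKM in CTR and 30.3, 30.2 and 28.7 FPKM in miR-8485 (log2 fold change 0.68, standard error 0.06, adjusted p = 7.4e-05). PFKM, the muscle type, read 15.4, 17.8 and 17.8 FPKM in CTR and 21.2, 20.5 and 21.2 FPKM in miR-8485 (log2 fold change 0.30, adjusted p = 0.0047). In none of the 3 genes did the groups overlap. Of the summed phosphofructokinase-1 FPKM, PFKP held 75.8% to 77.2% in CTR and 59.7% to 60.6% in miR-8485, and PFKL 11.6% to 12.8% and 22.6% to 23.98%. The sum itself went from 151 ± 11.4 (SD, n = 3) to 127 ± 1.005 FPKM (SD, n = 3).

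The PFKFB enzymes set the level of fructose-2,6-bisphosphate, the strongest known activator of phosphofructokinase-1. PFKFB4 stood at 18.6, 18.3 and 19.5 FPKM in CTR and at 13.4, 12.04 and 13.1 FPKM in miR-8485 (log2 fold change -0.55, adjusted p = 1.5e-04). PFKFB3, the form with the highest kinase over phosphatase activity, stood at 10.4, 11.6 and 11.96 FPKM in CTR and at 9.65, 8.74 and 9.18 FPKM in miR-8485 (log2 fold change -0.29, adjusted p = 0.0081). Both fell without overlap. PFKFB2, the heart form, was low throughout at 1.51 to 1.95 FPKM, and its log2 fold change of -0.12 (95% confidence interval -0.40 to 0.15) was not called.

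**Figure D2:**
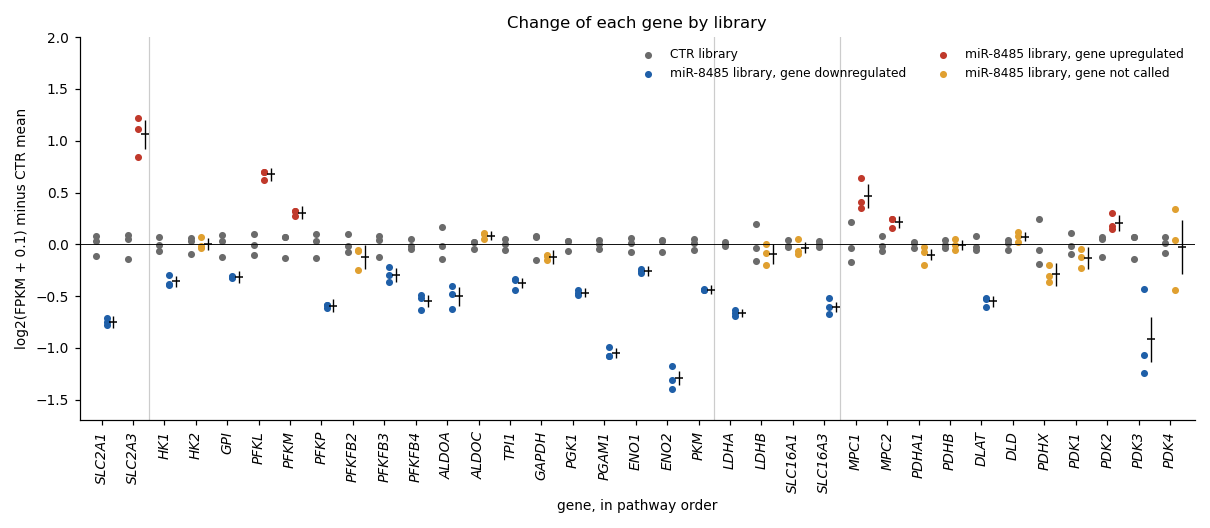
Log2(FPKM + 0.1) of each library minus the CTR mean for the 35 genes in pathway order, with CTR in grey and miR-8485 libraries coloured by the limma call; the black mark beside each gene is its log2 fold change with the standard error. ENO2 (-1.29) and PGAM1 (-1.05) fell most, SLC2A3 (1.06) and PFKL (0.68) rose most, and the 3 miR-8485 libraries of PDK3 and PDK4 were spread most widely.

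From aldolase to triose phosphates the change was moderate. TPI1, triose phosphate isomerase, went from 468 to 502 FPKM in CTR to 358 to 385 FPKM in miR-8485 (log2 fold change -0.37, adjusted p = 4.5e-04). ALDOA, the aldolase of muscle and most proliferating cells, read 7.44, 8.10 and 9.21 FPKM in CTR and 6.18, 5.29 and 5.86 FPKM in miR-8485 (log2 fold change -0.50, adjusted p = 0.0026). ALDOC, the brain form, read 61.2 to 64.4 FPKM in CTR and 65.4 to 68.2 FPKM in miR-8485 and was not called (log2 fold change 0.08, adjusted p = 0.118). The low reading of ALDOA beside ALDOC is uncertain, since 42.8% of its exonic bases are shared on the same strand with a gene listed as AC093512.2, itself at 0.164 to 0.968 FPKM, and how the counting treated fragments of shared exons is not given in the sources used here.

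The lower steps of glycolysis, which yield ATP and NADH, held the largest falls but also GAPDH, which was not called. GAPDH, often used as a reference gene, read 1305, 1530 and 1516 FPKM in CTR and 1304, 1348 and 1334 FPKM in miR-8485. Its groups overlapped through the low CTR replicate 1, and its log2 fold change of -0.12 (95% confidence interval -0.28 to 0.04, adjusted p = 0.157) was not called, whereas without CTR replicate 1 it was -0.20 with an adjusted p of 0.0017. PGK1, phosphoglycerate kinase, went from 200 to 215 FPKM in CTR to 150 to 154 FPKM in miR-8485 (log2 fold change -0.47, adjusted p = 8.8e-05).

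PGAM1, the phosphoglycerate mutase on chromosome 10 (97426160 to 97433441), fell by 51.7% of its CTR mean. It read 334, 347 and 356 FPKM in CTR and 174, 163 and 164 FPKM in miR-8485 (log2 fold change -1.05, standard error 0.05, adjusted p = 4.0e-06). The gap between the groups was many times the spread within either, and no other single-gene step of the route fell as far. Fragments on the 13 listed PGAM1 pseudogenes came to 0.07% to 0.36% of those on PGAM1 itself.

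Among the enolases, which form phosphoenolpyruvate, the minor isozyme fell further than the major one. ENO1, the ubiquitous form, read 677, 719 and 742 FPKM in CTR and 604, 597 and 586 FPKM in miR-8485 (log2 fold change -0.26, adjusted p = 0.0026). ENO2, known as neuron-specific enolase and as a hypoxia-responsive gene, read 30.5, 32.9 and 33.2 FPKM in CTR and 12.2, 12.95 and 14.2 FPKM in miR-8485 (log2 fold change -1.29, standard error 0.07, adjusted p = 8.2e-06). ENO2 thereby held 4.28% to 4.38% of enolase FPKM in CTR and 1.97% to 2.37% in miR-8485. On chromosome 12, ENO2 (6913745 to 6923698) lies in the same region as TPI1 (6867119 to 6870948) and GAPDH (6533927 to 6538374), without adjoining them. In that order their log2 fold changes were -1.29, -0.37 and -0.12.

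PKM, the pyruvate kinase that makes pyruvate and ATP, read 404, 423 and 435 FPKM in CTR and 310, 310 and 312 FPKM in miR-8485 (log2 fold change -0.44, adjusted p = 1.0e-04). Its M1 and M2 splice forms share 1 gene and cannot be separated in a gene-level table.

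Among genes of lactate formation and export, the more abundant isozymes LDHA and SLC16A3 fell. LDHA, the lactate dehydrogenase subunit favouring pyruvate reduction, on chromosome 11 (18394388 to 18408425), read 443, 437 and 449 FPKM in CTR and 280, 285 and 274 FPKM in miR-8485. The groups lay far apart (log2 fold change -0.66, standard error 0.04, adjusted p = 1.1e-05). LDHB, the heart type, read 38.0, 29.6 and 32.3 FPKM in CTR and 33.2, 31.2 and 28.7 FPKM in miR-8485 and overlapped (log2 fold change -0.10, 95% confidence interval -0.32 to 0.13). It is uncertain in that 33.4% of its exonic bases are shared on the same strand with AC010197.2, listed at up to 0.0429 FPKM. SLC16A3 (MCT4), a lactate exporter known to respond to hypoxia, read 99.6, 102 and 104 FPKM in CTR and 70.7, 63.6 and 66.8 FPKM in miR-8485 (log2 fold change -0.60, adjusted p = 4.7e-05). SLC16A1 (MCT1), the carrier that works in both directions, stayed within 33.9 to 37.6 FPKM in all 6 libraries, with a 95% confidence interval of its log2 fold change of -0.16 to 0.09.

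The mitochondrial side of pyruvate use showed mixed changes. Of its 11 genes, 10 were tested, and 3 were upregulated and 2 downregulated, with a median log2 fold change of -0.05. Among all tested genes, 29.1% were upregulated and 30.5% downregulated, so these counts lay near the general share. MPC1, a subunit of the mitochondrial pyruvate carrier, read 10.01, 8.37 and 7.61 FPKM in CTR and 11.5, 13.5 and 11.04 FPKM in miR-8485 (log2 fold change 0.47, adjusted p = 0.0092). Its partner MPC2 read 12.8, 11.6 and 11.95 FPKM in CTR and 14.3, 13.5 and 14.4 FPKM in miR-8485 (log2 fold change 0.22, adjusted p = 0.012). Both rose without overlap, but MPC1 rested on 213 to 377 fragments a library, and 21.8% of the exonic bases of MPC2 face DCAF6 (6.54 to 9.60 FPKM) on the opposite strand, with the strand setting of the counting not given in the sources used here. MPC1 was no longer called once the trend against gene length was removed (0.26, adjusted p = 0.063), and MPC2 neither then (0.11) nor after rescaling to TPM (0.10).

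Within the pyruvate dehydrogenase complex, DLAT was the subunit gene that was called. DLAT, the E2 acetyltransferase core, read 20.2, 22.2 and 20.7 FPKM in CTR and 13.8, 14.7 and 14.6 FPKM in miR-8485 (log2 fold change -0.55, standard error 0.05, adjusted p = 1.1e-04). PDHA1 and PDHB, the E1 subunits, and DLD, the E3 subunit shared with other complexes, overlapped between groups, at log2 fold changes of -0.10, -0.0038 and 0.07. Exons on the opposite strand face 19.3% of PDHA1 (MAP3K15, at most 0.526 FPKM) and 13.3% of DLAT (PIH1D2, at most 1.24 FPKM). PDHX, the E3-binding protein, lay lower in all miR-8485 libraries, at 8.66 to 9.69 FPKM against 9.77 to 13.2 FPKM, but its log2 fold change of -0.29 had an adjusted p of 0.0504. It was called in 5 of the 17 alternative settings, among them voom on recovered fragments (adjusted p = 0.012).

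The 4 pyruvate dehydrogenase kinases, which switch the complex off by phosphorylation, were all low. PDK3 read 2.39, 2.05 and 2.39 FPKM in CTR and 0.90, 1.03 and 1.65 FPKM in miR-8485, with miR-8485 replicate 3 nearest to CTR (log2 fold change -0.92, standard error 0.22, adjusted p = 0.0080, 80 to 214 fragments). PDK2 read 4.88, 5.497 and 5.60 FPKM in CTR and 6.57, 6.03 and 5.88 FPKM in miR-8485 (log2 fold change 0.21, adjusted p = 0.046), a call that 10 of the 17 alternative settings did not keep, and 38.6% of its exonic bases face SAMD14 (0.063 to 0.307 FPKM) on the opposite strand. PDK1, a known hypoxia-inducible gene, read 1.69 to 2.15 FPKM over all libraries and was not called (log2 fold change -0.13, 95% confidence interval -0.39 to 0.13). PDK4 stayed between 0.46 and 0.87 FPKM on 38 to 75 fragments, and in the limma fit of all 31768 genes above 0, in which 22.1% were called, its adjusted p was 0.974. The summed FPKM of the kinases was 10.04 to 10.6 in CTR and 9.34 to 10.3 in miR-8485, so the groups overlapped although PDK2 and PDK3 moved apart.

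Summed over isozymes, 12 of 16 steps lay lower in all miR-8485 libraries, 1 lay higher (the mitochondrial pyruvate carrier, 19.6 to 22.8 against 25.4 to 27.0 FPKM) and 3 overlapped (aldolase, GAPDH and the kinases), beside 34.0% of single tested genes that lay lower in all miR-8485 libraries. Steps with a single gene repeat the values given above. The aldolase sum was mostly ALDOC, at 87.5% to 89.2% in CTR and 91.4% to 92.8% in miR-8485. The uncertain reading of ALDOA, which was itself downregulated, bears on that sum and on the ALDOC to ALDOA ratio. Ratios of isozymes within a library do not depend on the scaling between libraries. In 11 of 12 pairs the ratios did not overlap between the groups, with a two-sided exact permutation p of 0.1, the smallest that 3 against 3 libraries allow, and 0.109 after Benjamini-Hochberg adjustment over the 12 pairs. The PFKP to PFKL ratio went from 6.20 ± 0.38 (SD, n = 3) to 2.56 ± 0.10 (SD, n = 3), the largest log2 shift downward, -1.27. The ENO2 to ENO1 ratio went from 0.0452 to 0.022, LDHA to LDHB from 13.4 to 9.04, and SLC16A3 to SLC16A1 from 2.81 to 1.90. HK2 to HK1 went from 0.87 to 1.12 and SLC2A3 to SLC2A1 from 0.0042 to 0.015. MPC2 to MPC1 was the pair that overlapped. Of single tested genes 66.5% did not overlap, and no such share was computed for ratios of other gene pairs.

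**Figure D3:**
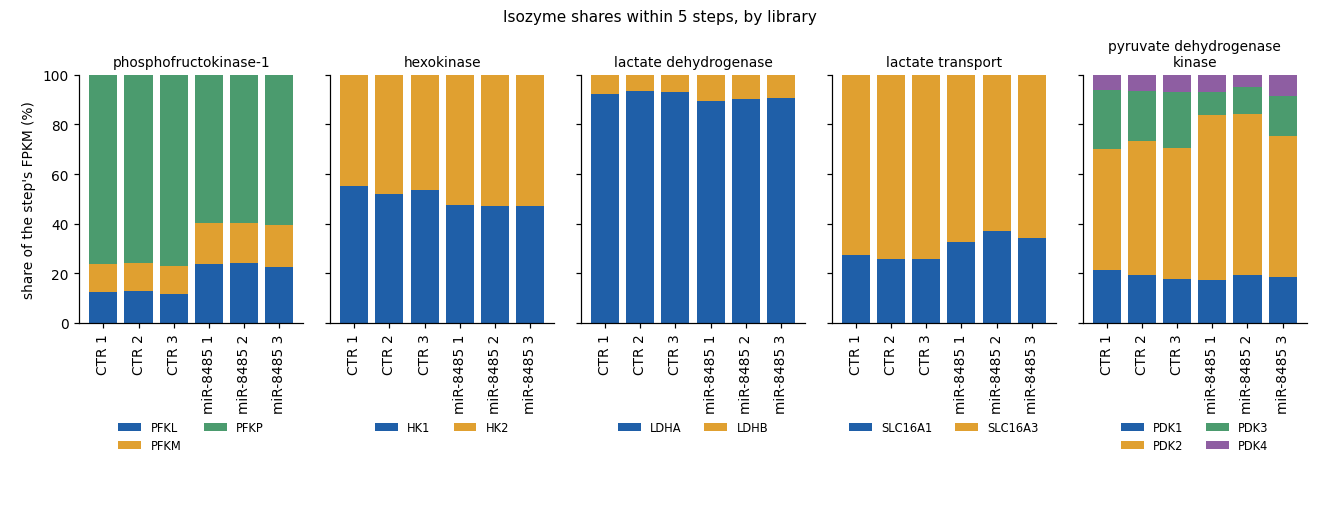
Share of the summed FPKM of a step held by each isozyme in the 6 libraries, for phosphofructokinase-1, hexokinase, lactate dehydrogenase, lactate transport and the pyruvate dehydrogenase kinases. PFKP dropped from 75.8% to 77.2% of phosphofructokinase-1 in CTR to 59.7% to 60.6% in miR-8485, and PDK3 from 20.2% to 23.8% to between 9.13% and 16.0% of the kinases.

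Genes with and without the seed word moved in both directions. Of the 11 tested genes with TGTGTGT in the canonical 3′ UTR, 6 were downregulated (PFKFB4, PGK1, PGAM1, ENO2, PKM and DLAT) and 2 upregulated, with a median log2 fold change of -0.44. Of the 23 without it, 11 were downregulated and 4 upregulated, with a median of -0.26. Over all tested genes, 44.5% of those with the word were downregulated and 19.6% upregulated, against 29.2% and 31.9% of those without it. HK2, with its single run of overlapping copies, was not called. LDHA, SLC2A1 and PFKP, with no copy, fell, and so did ENO2 and PGAM1, with 1 copy each and the largest falls of the route. PDK3, counted here as without the word, fell too and holds 3 copies in its longest annotated 3′ UTR. The part of the word in these changes was not tested.

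Promoters were read for the core of the hypoxia response element, ACGTG, on either strand, as many genes of the route are known targets of the hypoxia-inducible factors. RefSeq gave a start for 32 of the 35 genes on GRCh38.p14. In the 250 bases before it, ACGTG stood in 11 (34.4%), against 24.3% of 8766 promoters of tested genes and 18.7% of all 27305. The variant core GCGTG stood in 40.6%, 46.9% and 31.9%, and the E-box CACGTG, which contains ACGTG, in 12.5%, 9.24% and 6.49%. Not every window lies upstream of the whole gene. Those of GPI, PFKM, TPI1, PGAM1, ENO1, ENO2, PKM and PDHX were annotated as exonic throughout, and that of ALDOA over 225 bases. Exons of any gene on either strand are included. The PGK1 and PFKP windows lie inside annotated gene spans that start at 77910739 and 3066333. Of the 11 genes with ACGTG, 7 were downregulated and 0 upregulated, and of the 20 tested genes without it, 10 were downregulated and 5 upregulated. Over all tested genes, 31.9% with ACGTG and 33.3% without it were downregulated, and 29.9% and 28.4% were upregulated. The 4 windows shown hold at most 3 annotated exonic bases, with ACGTG or its complement CACGT in capitals. They are LDHA and PGK1, which hold ACGTG and fell, PFKP, which lacks ACGTG and fell, and PFKL, which lacks ACGTG and rose. The variant core GCGTG, not marked, has 1 copy each in the PGK1 and PFKL windows and 0 in those of LDHA and PFKP. Calls were not split by GCGTG.
LDHA, chr11:18394313-18394562, plus strand: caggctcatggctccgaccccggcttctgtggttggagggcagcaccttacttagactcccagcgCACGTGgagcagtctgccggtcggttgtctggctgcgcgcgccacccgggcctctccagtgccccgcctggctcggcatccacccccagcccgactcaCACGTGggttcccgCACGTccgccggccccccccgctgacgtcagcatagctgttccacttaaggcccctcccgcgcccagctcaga
PGK1, chrX:78103998-78104247, plus strand: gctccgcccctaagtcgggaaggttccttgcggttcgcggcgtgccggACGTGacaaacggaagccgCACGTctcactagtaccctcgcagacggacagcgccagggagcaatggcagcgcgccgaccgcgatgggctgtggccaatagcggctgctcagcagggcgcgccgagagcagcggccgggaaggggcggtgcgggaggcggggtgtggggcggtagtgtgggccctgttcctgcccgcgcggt
PFKP, chr10:3067720-3067969, plus strand: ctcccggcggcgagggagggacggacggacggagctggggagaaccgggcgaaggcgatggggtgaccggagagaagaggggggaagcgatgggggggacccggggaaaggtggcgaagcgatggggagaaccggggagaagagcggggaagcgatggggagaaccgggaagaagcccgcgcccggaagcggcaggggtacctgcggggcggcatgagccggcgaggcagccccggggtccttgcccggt
PFKL, chr21:44299803-44300052, plus strand: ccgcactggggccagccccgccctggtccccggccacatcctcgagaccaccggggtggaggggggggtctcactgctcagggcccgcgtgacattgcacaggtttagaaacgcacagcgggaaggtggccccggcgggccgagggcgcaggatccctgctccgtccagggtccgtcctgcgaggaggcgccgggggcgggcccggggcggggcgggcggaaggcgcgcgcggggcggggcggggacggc
A match of letters is not a bound site, and binding was not measured.

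Lists of neighbouring pathways were mixed in direction, whereas most hypoxia genes outside glycolysis fell. The counts below stand beside 29.1% upregulated and 30.5% downregulated among all tested genes. Other genes of glucose and pyruvate handling, 43 listed and 20 tested, had 6 upregulated and 5 downregulated, with a median log2 fold change of 0.07. PCK2, the mitochondrial phosphoenolpyruvate carboxykinase, rose from 3.93 ± 0.16 to 6.86 ± 0.48 FPKM (SD, n = 3), and ARRDC4, a glucose-responsive arrestin, LIPT1 and LIAS, which act in lipoic acid attachment and synthesis, rose by log2 fold changes of 0.71, 0.68 and 0.53. Under the filter, in the fit of all genes above 0, HKDC1, a hexokinase-domain gene, went from 0.599, 0.701 and 0.675 FPKM in CTR to 0.013, 0.078 and 0.025 FPKM in miR-8485 (log2 fold change -2.48, adjusted p = 0.0025, 1 to 54 fragments). SLC16A7, a monocarboxylate carrier, and LIPT2, an enzyme of lipoic acid attachment, were also downregulated there without overlap (log2 fold changes -1.29 and -0.89, adjusted p = 0.012 and 0.044), on 58 to 247 and 9 to 24 fragments. These 3 genes were named after their values were seen. Of 8 tested pentose phosphate genes, 3 were upregulated and 2 downregulated. RPE, an epimerase of the branch, had a log2 fold change of -0.38, whereas H6PD, an enzyme of the endoplasmic reticulum, and PGLS, the lactonase, had 0.56 and 0.44.

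Of 22 tricarboxylic acid cycle genes, 6 were upregulated and 3 downregulated, with a median of 0.03. The shares among all tested genes were 29.1% upregulated and 30.5% downregulated, here and for the lists that follow. IDH3G, a subunit of isocitrate dehydrogenase, and SUCLG2, a subunit of succinyl-CoA ligase, rose by log2 fold changes of 0.68 and 0.31, and DLST, the E2 subunit of oxoglutarate dehydrogenase, fell by 0.37. The hypoxia list without glycolytic genes had 21 genes, of which 17 were tested, 14 downregulated and 0 upregulated, with a median of -0.57. EPAS1, which encodes HIF-2α, fell by 1.34 on the log2 scale, and the known targets ANKRD37, ADM and P4HA2 fell by 1.09, 1.08 and 0.90. VHL, BNIP3L and KDM3A were tested and not called. The list holds hypoxia factors, their regulators and their targets together, and the activity of the factors was not measured. Among 13 tested regulators of glycolytic genes, 2 were upregulated and 5 downregulated. ESRRA, a nuclear receptor of oxidative metabolism, rose by 0.70, and SP1, a general promoter factor, MLXIP, a glucose-sensing factor, and HNRNPA2B1, known for its part in PKM splicing, fell by 0.53, 0.51 and 0.36. MYC, the other upregulated regulator, rose by 0.27, whereas HIF1A, of the hypoxia list, was downregulated by 0.57, both without overlap. The part of MYC and HIF1A in the changes of the route was not tested.

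**Figure D4:**
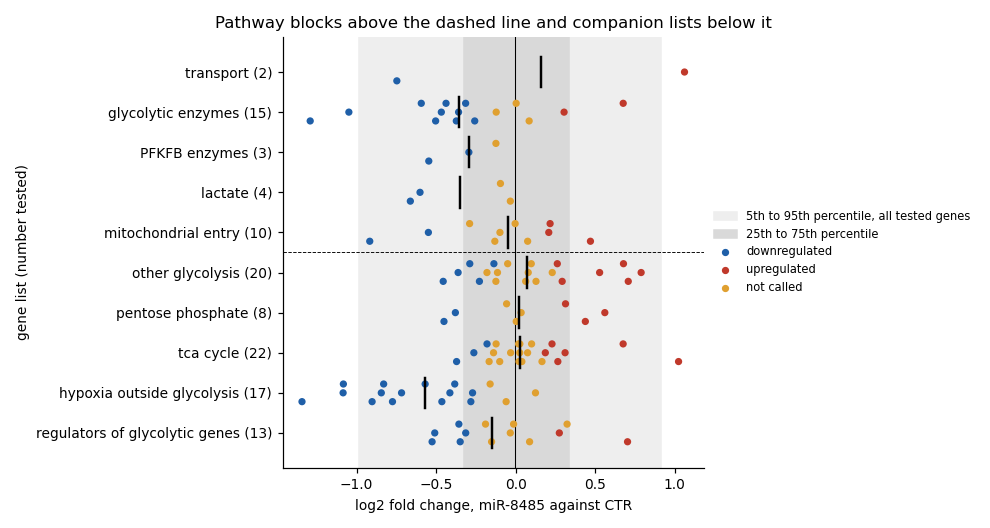
Log2 fold change of each tested gene in the 5 blocks of the route (above the dashed line) and in 5 companion lists (below), with the list median as a thick black line and the spread of all tested genes as grey bands. The glycolytic enzymes (median -0.36) and the hypoxia list (-0.57) sat to the left, and the tricarboxylic acid cycle list (0.03) lay around the median of all genes.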

How the data were processed

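RNA was sequenced from 6 HCT116 libraries, 3 CTR and 3 miR-8485, grouped by the sample labels. Per the submitters' processing notes, reads were mapped to hg38 with HISAT2 2.0.5 and counted with featureCounts 1.5.0-p3. The annotation release, the strand setting and the treatment of multi-mapped fragments are not given in the sources used here. The deposited file held FPKM as computed by the authors, with no scaling between libraries beyond the library total, and fragments were recovered from these values through gene length. How precise a value is depends on its number of fragments.

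Groups were compared in R 4.3.3 with limma 3.58.1, using eBayes with a trend of the variance, two-sided, on log2(FPKM + 0.1) and with group as the sole term. Benjamini-Hochberg adjustment ran over the 12349 genes whose mean was 1 FPKM or more. The fit was tested on simulated data. PDK4, under the filter, came from a fit that kept all 31768 genes above 0, and 26967 genes at 0 in every library were left out. The other steps ran in Python 3.11.15 (numpy 2.4.6, scipy 1.17.1, pandas 2.3.3 and, for plots, matplotlib 3.10.9). The genes and companion lists were chosen with earlier results of these data known. All 35 genes were named, and of each companion list up to 4 called genes without overlap among those past the filter, ranked by absolute log2 fold change. MYC, HIF1A, HKDC1, SLC16A7, LIPT2, VHL, BNIP3L and KDM3A were named beyond these. Alternatives were pseudocounts of 1 and 0.01, no filter, a filter at 5 FPKM, TPM, median-of-ratios scaling, removal of length or GC trends (GC known for 99.6% of tested genes), no variance trend, a replicate block, voom on recovered fragments and each library left out. Replicate numbers did not pair the samples. Sites were read from canonical 3′ UTRs of GENCODE release 44 and promoters from RefSeq. The mimic sequence was taken from the supplementary methods of the study. The results of a pair of companion genes are not reported here.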

Additional observations from a re-analysis of the deposited data

How the results depend on the processing

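Over 17 alternative settings, 20 of the 23 called members of the route kept their direction and stayed past the threshold in every setting that tested them, and 0 called members changed direction. SLC2A3 and PDK3 were under the filter of 5 FPKM and so were not tested there. The members downregulated numbered 17 to 20 and those upregulated 4 to 6. The exceptions were MPC1 and MPC2, whose values stand with their results, and PDK2. PDK2, with an adjusted p of 0.046, was not called without a filter, after TPM rescaling, after removal of the GC trend, without a variance trend (adjusted p = 0.059), with the replicate block (adjusted p = 0.085), or without CTR replicate 1, CTR replicate 2 or any of the miR-8485 replicates, where its log2 fold change was 0.15 to 0.24. The replicate block gave 5 upregulated and 17 downregulated members, beside 3634 and 3754 of all 12349 tested genes, and changed no other call of a member. Same-numbered libraries deviated together little (r = 0.067, 0.033 and -0.064), and CTR replicates 2 and 3 did not correlate best with their own number. Voom called 6 members upregulated and 18 downregulated, beside 3920 and 3895 of all 12349 tested genes. Calls appeared for GAPDH (-0.24, adjusted p = 0.014) and PDHA1 (-0.21, adjusted p = 0.016) after TPM rescaling, for DLD after removal of the GC trend (0.22, adjusted p = 0.0039) and for PDHX without CTR replicate 3 (-0.38, adjusted p = 0.019).

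The sign changed for 8 members, none of them called as reported. TPM rescaling gave HK2 -0.11, ALDOC -0.031 and DLD -0.040. Removal of the GC trend gave HK2 -0.011, SLC16A1 0.085, PDHB 0.049, PDK1 6.4e-04 and PDK4 0.0496, and removal of the length trend gave PDHB 0.0013 and PDK4 0.0016. PDHB was 0.0070 with median-of-ratios scaling and 0.0071 with voom. With each library left out in turn, HK2 ranged from -0.044 to 0.034, LDHB from -0.177 to 0.0024, PDHB from -0.031 to 0.021 and PDK4 from -0.202 to 0.189. The cause was not tested. Isozyme pairs without overlap numbered 11 or, without CTR replicate 1 or miR-8485 replicate 3, 12. Depth limits PDK4, PDK3, SLC2A3 and MPC1, the members with few fragments, and with 3 libraries a group no single ratio can reach an exact p under 0.1.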
